A study of Rattus norvegicus with 60 samples.

Results

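Synaptic vesicle cycle genes encode the proteins that fill, dock, fuse and recover the vesicles with which nerve terminals release transmitter. The module was defined as 35 named genes, chosen by their function but with earlier results of these data known. A gene was measured where the platform annotation gave a probe set that symbol alone. That held for 34 of the 35, with 35 probe sets in all, among 14324 genes with 1 symbol. The gene of beta-SNAP, Napb, had no such probe set and is not analysed here. Rats with a contused thoracic spinal cord, or sham rats, had received methylprednisolone (MP), a synthetic glucocorticoid, or its ethanol vehicle, and RNA of the lesion segment of each rat was hybridized to its own Rat Gene 1.0 ST array.

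All 60 animals were female Long Evans rats of 8~9 weeks, and all of them, sham rats included, are labelled as given ethanol or MP, which was itself dissolved in ethanol. The 14 SCI-MP rats were contused with a weight-drop impactor after a laminectomy and given MP at 30 mg/kg. The 16 SCI-EtOH rats had the contusion and the vehicle, the 14 S-MP rats no contusion and MP, and the 16 S-EtOH rats no contusion and the vehicle. What surgery the sham rats had is not described in the sources used here. Tissue was taken at 0 h from vehicle rats only, and in all groups at 7 times after medication, namely 2, 4, 6 and 8 h and then at 12, 24 and 48 h, with 2 rats per group and time. No group without ethanol was analysed here, so the sham rats are the baseline throughout.

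Release runs through a fixed sequence. A vesicle filled with transmitter is brought to the active zone by Rab3 and its effectors, primed by Munc13 and RIM proteins, and fused when a calcium-binding synaptotagmin triggers SNARE proteins that are held ready by complexins. Its membrane is then taken back by dynamin-dependent endocytosis. In the spinal cord these proteins sit in the terminals of interneurons, motor neuron collaterals, descending tracts and sensory fibres. Neuronal mRNA of the segment comes mostly from cell bodies within it, since the cell bodies of descending and sensory axons lie elsewhere.

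The values are log2 intensities that the authors centred near 0 for each probe set, so they show differences between rats but no level of a gene, and genes were not compared by level. A difference of 1 on this scale is a change of 2-fold. Array medians over all probe sets lay between −0.03 and 0.11. Duplicate rats correlated between 0.161, in SCI-EtOH at 6 h, and 0.903 over probe sets. The labels name no batch or scan day, so none was tested, and p-values measure the spread between the rats of a pair. Of the marker genes of other cells, read as differences only, 11 of 11 neuron markers were lower in SCI-EtOH rats than in S-EtOH rats over the mean of 7 times, with a median of −1.19, and 6 of 6 astrocyte markers with a median of −0.66. Of 7 oligodendrocyte markers 5 were lower and 1 higher (median −0.23), and of 5 microglia markers 0 were lower and 1 higher (median 0.037). Of 8 neutrophil and monocyte markers 7 were higher, with a median of 1.42, as were 3 of 3 red cell markers, with a median of 1.47, and 4 of 4 endothelial markers, with a median of 0.54. Of all genes tested in this comparison, 27.5% were lower and 35.1% higher. The mean of the neuron markers ran between −2.17 and −0.25 in the 14 SCI-EtOH rats and between 0.08 and 0.41 in the 14 S-EtOH rats, and between −2.39 and −0.19 in SCI-MP and 0.05 and 0.51 in S-MP rats. The part of these cells in the results below was not tested. In whole tissue, fewer cells of a type and less RNA per cell cannot be told apart.

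The question put to the vehicle rats was how contusion changed the module. Over the mean of the times from 2 to 48 h, 33 of the 34 genes were lower in SCI-EtOH rats than in S-EtOH rats and 0 were higher, whereas 27.5% of all genes tested were lower. The median of the members was −1.10, and that of all genes 0.036. Calls are at an adjusted p of 0.05 from limma with Benjamini-Hochberg adjustment over all 14324 genes, on 1 fit of the 60 arrays. In 21 of the 34 genes all 14 SCI-EtOH rats lay below all 14 S-EtOH rats, against 3.55% of all genes. The mean of the 34 genes had a lowest, median and highest value of −1.56, −0.91 and −0.22 in the SCI-EtOH rats, and of 0.10, 0.25 and 0.33 in the S-EtOH rats. No injured rat reached a sham rat on this mean.

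**Figure D1:**
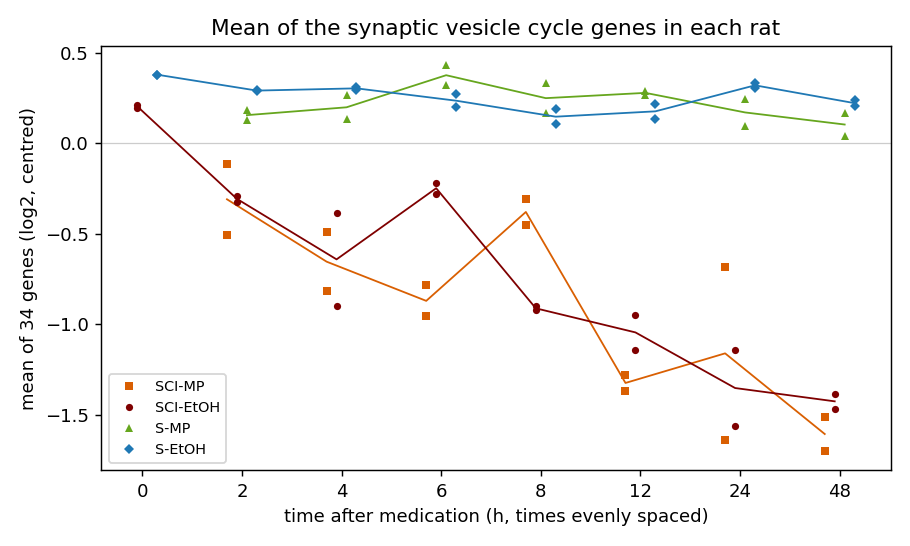
Mean of the 34 genes in each rat (vertical axis, centred log2 units) against hours after medication (horizontal axis, times evenly spaced), with 1 point per rat and lines that join the pair means of SCI-MP, SCI-EtOH, S-MP and S-EtOH. Sham rats lie at 0.04 or above and injured rats from 2 h on at −0.11 or below. The pair mean of SCI-MP lies above that of SCI-EtOH at 8 and 24 h, below it at 6, 12 and 48 h and close to it at 2 and 4 h.

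Among the proteins of membrane fusion, 4 of 5 genes were lower. Vamp1, a synaptobrevin of the vesicle membrane, had a lowest, median and highest value of −2.43, −1.39 and −0.43 in SCI-EtOH rats and of 0.05, 0.20 and 0.35 in S-EtOH rats. The groups did not overlap, and the difference over 7 times was −1.64 (SE 0.09, adjusted p = 1.68e-16). Nsf, the ATPase that takes spent SNARE complexes apart, had −1.88, −1.47 and −0.49 in SCI-EtOH rats and 0.17, 0.32 and 0.46 in S-EtOH rats. Its groups did not overlap either, at a difference of −1.65 (SE 0.08, adjusted p = 2.49e-18). Snap25, the SNARE of the terminal membrane, had −2.84, −1.39 and −0.22 in SCI-EtOH rats and 0.09, 0.22 and 0.39 in S-EtOH rats, a difference of −1.62 (SE 0.11, adjusted p = 8.27e-15). Again no injured rat reached a sham rat.

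The remaining 2 fusion genes stood apart from these 3. Vamp2, the other synaptobrevin, had a lowest, median and highest value of −0.24, 0.18 and 0.68 in SCI-EtOH rats and of 0.06, 0.38 and 0.62 in S-EtOH rats. The groups overlapped widely, and the difference was −0.21 (SE 0.05, adjusted p = 5.57e-04). At 0 h Vamp2 was already lower, with 0.27 and 0.34 in SCI-EtOH rats and 0.74 and 0.65 in S-EtOH rats. With the 0 h difference taken off, the difference over 7 times was 0.18, so its fall after 0 h is not shown. Stx1a, syntaxin 1A, was the only gene of the module with no call. It had −0.47, −0.01 and 0.36 in SCI-EtOH rats and −0.11, −0.01 and 0.11 in S-EtOH rats, with a difference of −0.044 (SE 0.064, adjusted p = 0.557). Its 2 probe sets gave −0.044 and −0.045, and the SD of each over the 60 rats was 0.16, the smallest spread in the module. Whether Stx1a was above background on these arrays cannot be read from centred values.

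The calcium sensors and complexins spanned the widest range, from −2.04 to −0.33, and 5 of 5 were lower. Syt2, a fast calcium sensor, had the largest fall of the module. Its lowest, median and highest values were −3.51, −1.88 and −0.40 in SCI-EtOH rats and −0.08, 0.24 and 0.34 in S-EtOH rats, a difference of −2.04 (SE 0.15, adjusted p = 5.47e-14). Syt1, the sensor of the same kind best known from forebrain synapses, fell by 0.98, and 1 or more of its SCI-EtOH rats lay within the range of the sham rats. Cplx1, a complexin that binds the assembled SNAREs, had −3.00, −1.51 and −0.12 in SCI-EtOH rats and 0.18, 0.38 and 0.53 in S-EtOH rats. Its groups did not overlap, with a difference of −1.80 (SE 0.12, adjusted p = 1.40e-14), whereas its paralogue Cplx2 fell by 0.33. Syt4, a synaptotagmin that depolarisation induces in rat neurons, fell by 0.36 over 7 times with a course of its own, given below.

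Of the Rab3 group, 3 of 3 were lower. Rab3a, the vesicle GTPase, had a lowest, median and highest value of −2.46, −1.12 and 0.05 in SCI-EtOH rats and of 0.15, 0.45 and 0.66 in S-EtOH rats, a difference of −1.62 (SE 0.10). Rab3c, a second Rab3 of synaptic vesicles, fell by 1.10, and Rph3a, the Rab3 effector rabphilin, fell by 1.35. The active zone had the smallest differences, with a median of −0.51 over 6 genes, all of them lower. Pclo (piccolo), a very large scaffold protein, fell by 0.86, Rims1 by 0.73 and Rims2 by 0.53, which encode scaffolds that hold calcium channels at release sites. Bsn (bassoon) fell by 0.49, the scaffold gene Erc2 by 0.34 and Unc13a, whose protein primes vesicles, by 0.26.

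All 9 genes of vesicle membrane and vesicle-bound proteins were lower, with a median of −1.30. Sv2b, a transporter-like glycoprotein of the vesicle, had −2.51, −1.91 and −0.62 in SCI-EtOH rats and −0.05, 0.18 and 0.35 in S-EtOH rats, a difference of −1.80 (SE 0.09, adjusted p = 1.41e-17). Syp (synaptophysin), the common marker of vesicles, had −2.64, −1.56 and −0.36 in SCI-EtOH rats and 0.11, 0.31 and 0.45 in S-EtOH rats, a difference of −1.70 (SE 0.11, adjusted p = 7.70e-15). Neither gene had an injured rat within the range of the sham rats. The synapsins, phosphoproteins that tether vesicles to each other, were both lower, Syn2 at −1.61 and Syn1 at −1.30. The Sv2 paralogues stood at −1.60 (Sv2c) and −1.07 (Sv2a), the synaptogyrins at −1.26 (Syngr3) and −0.89 (Syngr1), and beta-synuclein, Sncb, at −1.20, all of them called.

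Slc17a6 and Slc17a7, which load glutamate into vesicles as VGLUT2 and VGLUT1, fell by 1.49 and 0.73. All 14 SCI-EtOH rats lay below all S-EtOH rats in Slc17a6 and not in Slc17a7. The 4 genes of endocytosis were lower as well. Dnm1, the neuronal dynamin that cuts vesicles from the membrane, fell by 1.48 and Amph (amphiphysin), which brings dynamin to the vesicle neck, by 1.10. Sh3gl2 (endophilin A1), which bends the membrane, fell by 1.03 and Synj1, the phosphatase that strips the clathrin coat's lipid anchor, by 0.81.

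**Figure D2:**
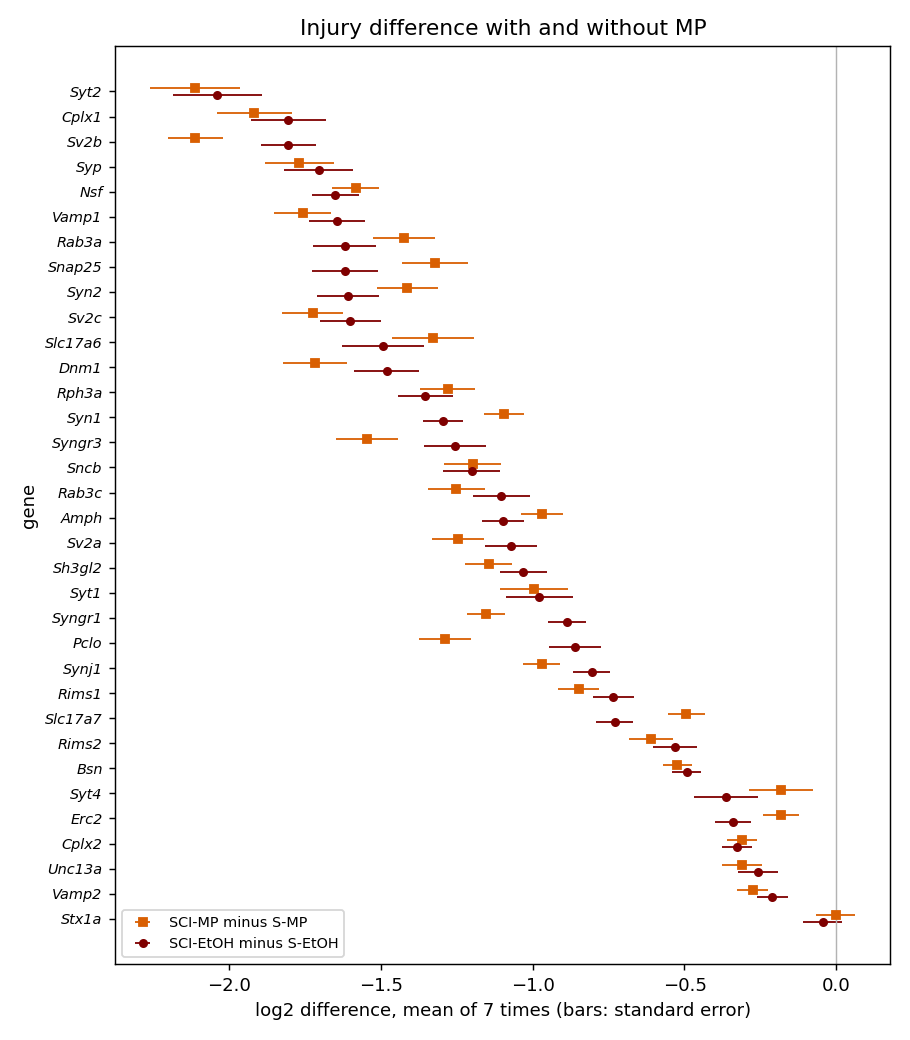
Injury difference of each of the 34 genes over the mean of 7 times (horizontal axis, log2 units), as SCI-MP minus S-MP (squares) and SCI-EtOH minus S-EtOH (circles), with bars of 1 standard error. Genes run in the order of the vehicle difference, from Syt2 at −2.04 to Stx1a at −0.044.

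The time points were then taken one phase at a time. At 0 h, 0 of the 34 genes were lower and 0 higher in SCI-EtOH, and 0.014% of all genes were lower in limma. At an unadjusted p under 0.05 there were 2 members, Vamp2 at −0.39 and Syn1 at −0.37. The median of the members was −0.18, and 28 of 34 lay below 0. A fit of the 0 h arrays alone called 10 members lower, array weights 5 and quantile normalization 6. The share of all genes under these settings was not counted, so these counts cannot be set against the 0.014%. At 2~6 h, the first phase, 29 genes were lower in SCI-EtOH (16.7% of all genes), with a member median of −0.67. The genes without a call were Stx1a (0.056), Unc13a (−0.026), Cplx2 (−0.050), Vamp2 (−0.10) and Pclo (−0.27). At 8 h the count was 27 (12.6% of all genes) and the median −1.04. An analysis of variance of that time with Tukey's range test, as in the methods, gave 9. At 12 h the count was 29 (17.3%) with a median of −1.13. At 24~48 h, 32 genes were lower (22.2% of all genes) with a median of −1.78, and 1 gene, Syt4, was higher (25.4% of all genes). The course was not even. In SCI-EtOH the duplicates had a module mean of −0.28 and −0.22 at 6 h, above the −0.39 and −0.90 at 4 h and the −0.92 and −0.90 at 8 h. That 6 h pair had the lowest duplicate correlation of all, 0.161, and its first duplicate the highest array median, 0.113. Whether array quality plays a part in the 6 h values was not tested.

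Whether the difference grew was tested directly, as the SCI-EtOH minus S-EtOH difference at 24~48 h less that at 2~6 h. It was lower late in 28 genes (14.8% of all genes) and higher in 1, Syt4 (16.7% of all genes), with a member median of −0.96. Within SCI-EtOH alone, 30 genes were lower late than early (25.3% of all genes) and 1 higher (28.3%). Within S-EtOH, limma called 0 (0.363% of all genes were lower), with 0 members at an unadjusted p under 0.05 and 1 after quantile normalization. The largest late changes were those of Syt2 (−2.24, SE 0.36), Cplx1 (−2.21, SE 0.30) and Snap25 (−1.71, SE 0.26). Syt2 had −3.51 and −2.65 in the SCI-EtOH rats of 24 h and −2.91 and −3.46 in those of 48 h, against 0.34 and 0.24 in the S-EtOH rats of 24 h and 0.30 and 0.09 in those of 48 h. At 2 h it had −0.71 and −0.59 in SCI-EtOH and 0.30 and 0.30 in S-EtOH rats. The injured rats were thus below the sham rats at both ends of the series, with the wider gap late.

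Some genes reached their lowest difference at 12 h. Slc17a6 differed by −1.16 at 2~6 h, −1.66 at 8 h, −2.42 at 12 h and −1.45 at 24~48 h, and its late minus early change of −0.29 had an adjusted p of 0.558. Sv2c differed by −1.14, −1.87, −2.43 and −1.74 at the same phases, with a late minus early change of −0.60 (adjusted p = 0.0608). The genes with no call in the late minus early test were these 2, Stx1a (−0.21), Synj1 (−0.28) and Erc2 (−0.07). After quantile normalization between arrays the count of genes lower late fell to 10, with Syt4 still the 1 that was higher.

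**Figure D3:**
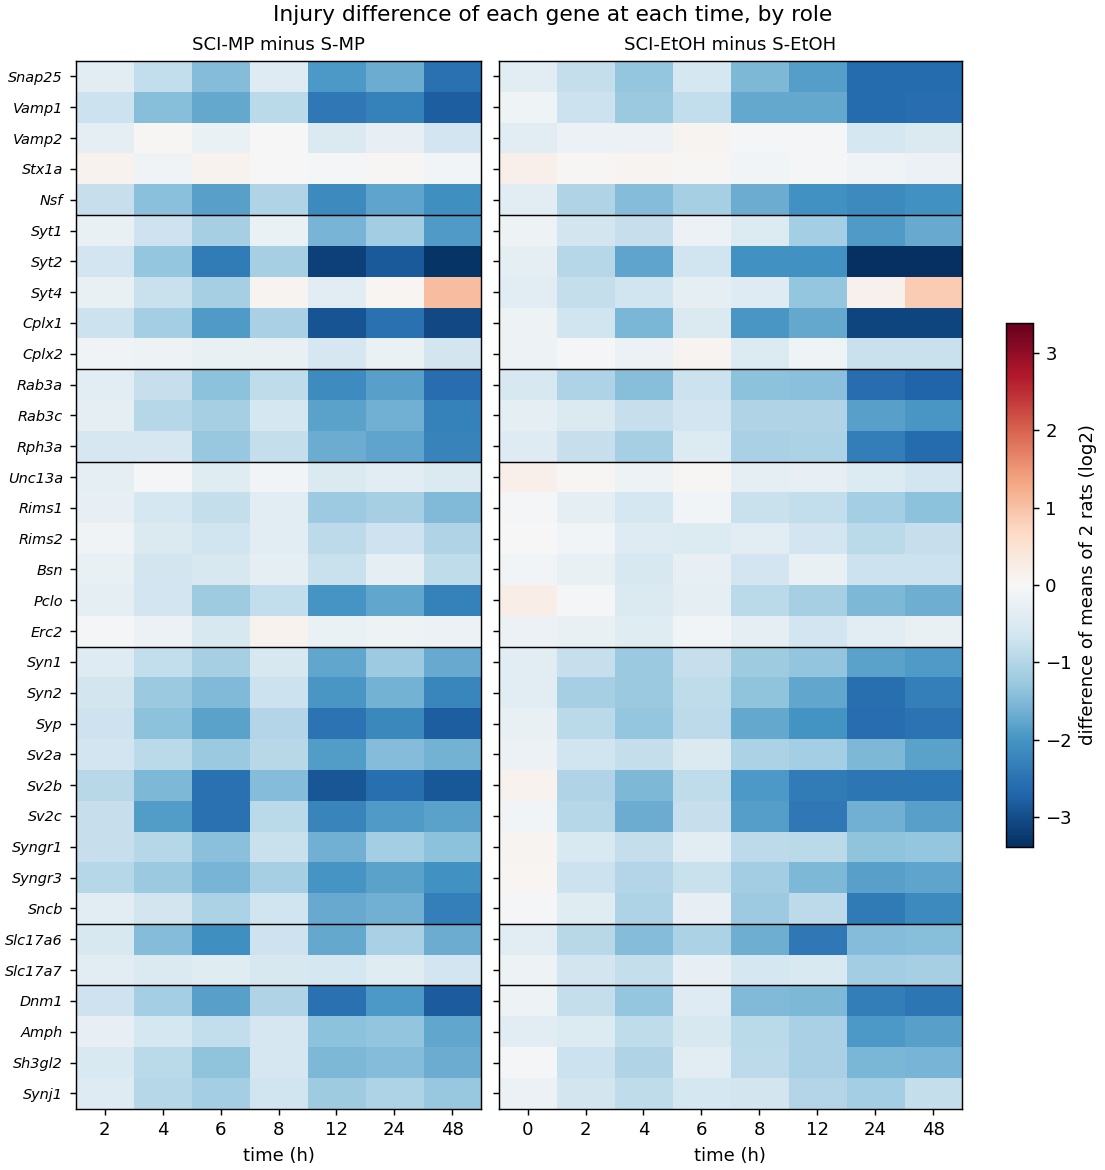
Difference of the means of 2 rats for each gene (rows, grouped by role) at each time in h (columns), as SCI-MP minus S-MP (left panel) and SCI-EtOH minus S-EtOH (right panel), with log2 units as colour, blue for lower in injured rats and red for higher. The lowest difference falls at 48 h in 23 of 34 rows of the left panel and at 24 or 48 h in 30 of the right, Stx1a stays pale, and Syt4 turns red at 48 h in both panels.

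Syt4 was the one gene called in both directions at different phases. It was lower in SCI-EtOH at 2~6 h (−0.59) and at 12 h (−1.32), had no call at 8 h (−0.43), and was higher at 24~48 h (0.50, SE 0.20, adjusted p = 0.0352). At 48 h it had 1.24 and 0.44 in SCI-EtOH rats and 0.03 and −0.07 in S-EtOH rats, so both injured rats lay above both sham rats. At 24 h it had 0.24 and 0.29 in SCI-EtOH rats and 0.13 and 0.12 in S-EtOH rats, a gap of 0.14 between the means. Its late minus early change was 1.09 (SE 0.25, adjusted p = 9.92e-04), against a member median of −0.96. The rise at 24~48 h lost its call in 8 of 15 alternative settings, with 0.30 (adjusted p = 0.260) without the first SCI-EtOH duplicate of 48 h. Without either duplicate of S-EtOH at 24 or 48 h, or of SCI-EtOH at 24 h, it lay between 0.47 and 0.52 with no call.

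**Figure D4:**
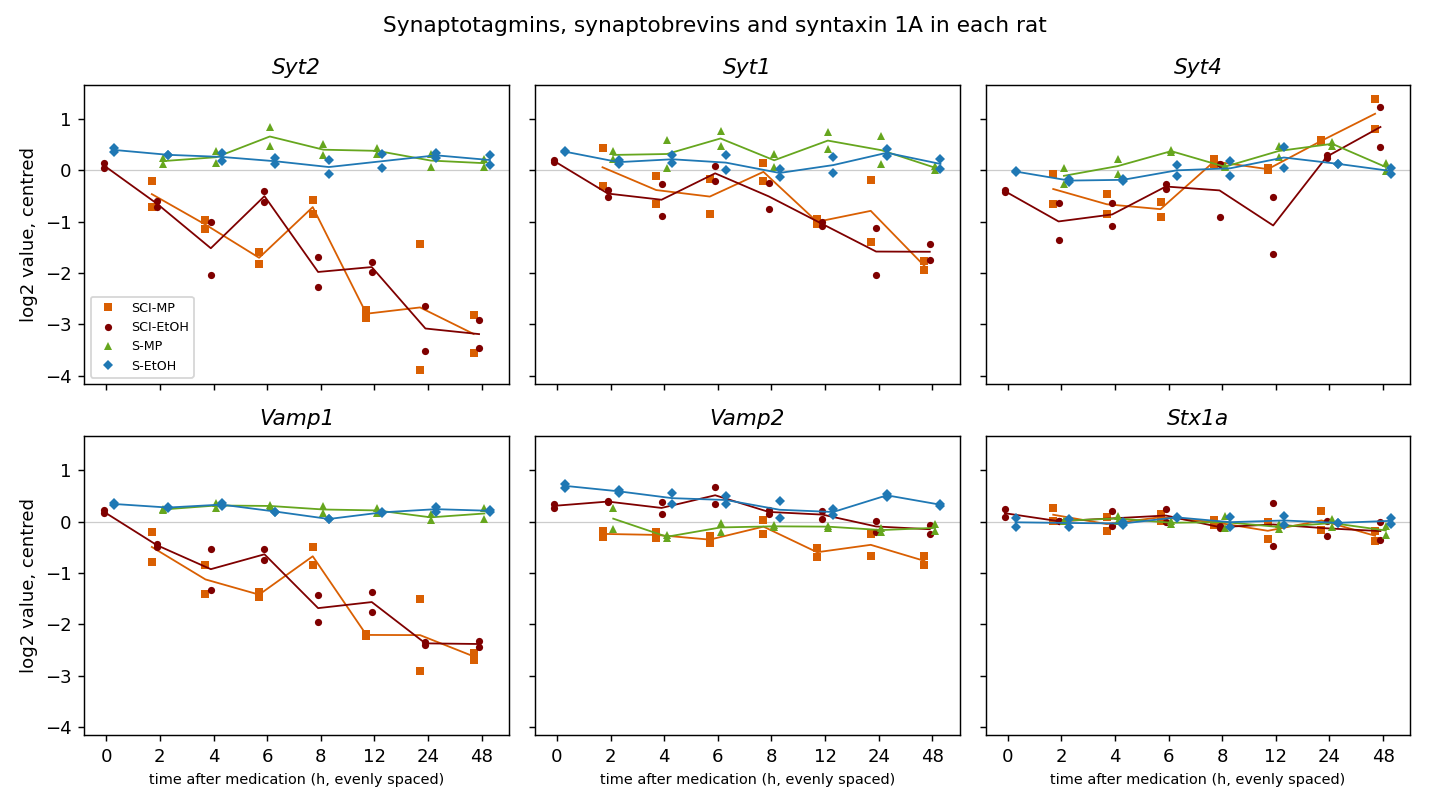
Centred log2 value of 6 genes in each rat (vertical axes, 1 scale) against hours after medication (horizontal axes, times evenly spaced), with points for rats and lines that join the pair means of SCI-MP, SCI-EtOH, S-MP and S-EtOH. Syt2, Syt1 and Vamp1 go down in injured rats, Syt4 goes up to 1.24 and 1.39 at its highest, and Stx1a stays between −0.47 and 0.36. Vamp2 has lower pair means with MP than with the vehicle from 2 h on, with ranges of rats that overlap by medication and by injury.

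The same question in rats given MP used other animals on both sides. Over 7 times, 32 of 34 genes were lower in SCI-MP than in S-MP (33.3% of all genes) and 0 higher, with a member median of −1.22. In 17 genes all 14 SCI-MP rats lay below all 14 S-MP rats (5.12% of all genes). Stx1a (−0.0018) and Syt4 (−0.18, adjusted p = 0.142) had no call. By phase, 31 genes were lower at 2~6 h (28% of all genes), 18 at 8 h (11.7%, and 8 by the methods' test), 31 at 12 h (21.7%) and 31 at 24~48 h (22.6%). The 1 gene that was higher, at 24~48 h (18.3% of all genes), was again Syt4, at 0.55 (SE 0.20, adjusted p = 0.0240). It had 0.80 and 1.39 in SCI-MP rats of 48 h and 0.13 and −0.01 in S-MP rats, and without the second SCI-MP duplicate of 48 h the difference was 0.40 (adjusted p = 0.148). The call was lost in 5 of 15 alternative settings, and after quantile normalization the difference of Syt4 was 0.051 (adjusted p = 0.847). The largest differences over 7 times were those of Syt2 (−2.11), Sv2b (−2.11) and Cplx1 (−1.92).

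The count at 8 h rests on 2 rats per group. Without 1 of them its group holds 1 rat and the standard error is wider, so a lower count is partly due to lost precision. It was 2 without the second SCI-MP duplicate of that time and 4 without the first S-MP duplicate. The 2 SCI-MP rats of 24 h lay far apart, with a module mean of −1.64 and −0.68, and Syt2 had −3.90 in one and −1.44 in the other. Leaving out either of them kept 31 or 32 calls at 24~48 h. Over 7 times the count was 32 without any 1 rat, and that of the vehicle rats 33.

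Whether MP changed the module was tested within the injured rats. Over 7 times 5 genes were lower (31.7% of all genes) and 3 higher (10.4%) in SCI-MP than in SCI-EtOH, and the member median was −0.049 and that of all genes −0.056. The 5 lower genes were Vamp2 (−0.57), Syngr1 (−0.39), Syngr3 (−0.36), Cplx1 (−0.31) and Dnm1 (−0.26), and the 3 higher were Syt4 (0.37), Snap25 (0.32) and Erc2 (0.24). The calls of Cplx1 and Dnm1 were lost in 22 and 19 of 37 alternative settings. Without the second SCI-MP duplicate of 24 h, 12 genes were lower and 2 higher. The contusion comparison of the vehicle rats and this one share the SCI-EtOH rats. Of the neutrophil and monocyte markers 6 of 8 were lower in SCI-MP, with a median of −0.53, and of the neuron markers 2 of 11 were lower and 1 higher. Their part in these differences was not tested.

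The MP difference was then read by phase, and a change of it between phases was not tested. At 2~6 h, 8 of 34 genes were lower in SCI-MP, a share near the 22.9% of all genes, and 0 were higher. The member median was −0.17 against −0.086 for all genes. The lowest values were those of Vamp2 (−0.67), Cplx1 (−0.60) and Sv2c (−0.60). At 8 h, 0 were lower and 7 higher (2.11% of all genes), with a member median of 0.49 against −0.01 for all genes. They were Syt2 (1.26), Sv2c (1.18), Snap25 (1.06), Sv2b (1.04), Vamp1 (1.01), Nsf (0.86) and Syn1 (0.63). Sv2b had −0.80 and −0.94 in SCI-MP rats of 8 h and −1.92 and −1.90 in SCI-EtOH rats, and Sv2c −0.44 and −0.57 in SCI-MP rats and −1.37 and −1.99 in SCI-EtOH rats. Both SCI-MP rats lay above both SCI-EtOH rats in each gene, and both were below the S-MP rats of 8 h, which had 0.78 and 0.44 in Sv2b and 0.52 and 0.31 in Sv2c. At 12 h, 10 genes were lower (9.18% of all genes), led by Cplx1 (−1.26), Dnm1 (−0.94) and Sncb (−0.82), and 1, Syt4, higher (7%) at 1.09. At 24~48 h 1 gene, Vamp2, was lower (10.6% of all genes), at −0.49.

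These phase counts depend on few rats. Leaving out 1 rat leaves 1 in its group and widens the standard error, which by itself tends to lower a count. The 7 calls of 8 h became 0 without the first SCI-MP duplicate of that time, 4 without the second and 1 after quantile normalization. Those of 2~6 h became 3 without the first SCI-EtOH duplicate of 4 h, 14 without the second, 4 without the second SCI-MP duplicate of 2 h or the first of 4 h, and 2 without the 6 h arrays. Those of 12 h became 4 without the second SCI-EtOH duplicate or without either SCI-MP duplicate of that time, and 0 after quantile normalization. At 24~48 h there were 7 calls, all lower, without the second SCI-MP duplicate of 24 h, 7 without the first, of which 6 were higher, and 2 without either SCI-EtOH duplicate of 24 h.

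Vamp2 moved with MP in both operations. Its lowest, median and highest values were −0.85, −0.30 and 0.04 in SCI-MP rats and −0.24, 0.18 and 0.68 in SCI-EtOH rats, a difference of −0.57 (SE 0.05, adjusted p = 2.67e-10). In sham rats they were −0.32, −0.12 and 0.26 with MP and 0.06, 0.38 and 0.62 with the vehicle, a difference of −0.51 (SE 0.05, adjusted p = 2.98e-08). The MP differences of Vamp2 were larger in size than its injury differences, −0.28 with MP and −0.21 without, a contrast that was not tested, while in Vamp1 the MP difference was −0.10 in injured and 0.01 in sham rats with no call. Syngr1 had −1.48, −0.98 and −0.46 in SCI-MP rats and −1.19, −0.70 and 0.05 in SCI-EtOH rats, which overlapped, a difference of −0.39 (SE 0.06, adjusted p = 6.81e-06). Syt4 had −0.90, 0.02 and 1.39 in SCI-MP rats and −1.62, −0.45 and 1.24 in SCI-EtOH rats, a difference of 0.37 (SE 0.11, adjusted p = 4.74e-03).

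In sham rats MP went with 2 lower genes over 7 times (4.22% of all genes) and 0 higher, Vamp2 and Syn1. Syn1 had a lowest, median and highest value of 0.00, 0.23 and 0.44 in S-MP rats and of 0.18, 0.42 and 0.75 in S-EtOH rats, a difference of −0.25 (SE 0.07, adjusted p = 0.0118). Rab3a had −0.06, 0.18 and 0.39 in S-MP rats and 0.15, 0.45 and 0.66 in S-EtOH rats, a difference of −0.28 with no call (adjusted p = 0.0790). By phase the 1 lower gene at 2~6 h (0.642% of all genes) and the 1 at 24~48 h (0.147%) was Vamp2. At 8 and 12 h limma called 0, with 3 and 4 members at an unadjusted p under 0.05. After quantile normalization 12 genes were lower and 4 higher over 7 times, and with array weights 8 and 3. Without the first S-MP duplicate of 2 h 3 were lower and 1 higher.

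Whether the injury difference itself depended on MP was tested as the difference of both injury differences. It was lower with MP in 2 genes (20.2% of all genes) and higher in 1 (5.45%). Pclo had a lowest, median and highest value of −2.28, −0.88 and −0.07 in SCI-MP rats, against 0.00, 0.22 and 0.62 in S-MP rats. Without MP it had −1.63, −0.90 and 0.08 in SCI-EtOH rats, against −0.22, 0.05 and 0.19 in S-EtOH rats. With MP the mean of the injured rats was lower (−1.02 in SCI-MP, −0.83 in SCI-EtOH) and that of the sham rats higher (0.27 in S-MP, 0.036 in S-EtOH), and neither difference was called on its own. The injury differences were −1.29 with MP and −0.86 without, and differed by −0.43 (SE 0.12, adjusted p = 8.90e-03). Those of Syngr1 were −1.15 and −0.89 and differed by −0.27 (SE 0.09, adjusted p = 0.0252), which was lost at −0.14 without the 6 h arrays (adjusted p = 0.304). Those of Slc17a7 were −0.49 and −0.73 and differed by 0.24 (SE 0.09, adjusted p = 0.0427), a call lost in 29 of 64 alternative settings.

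Sv2b and Snap25 had differences of comparable size without a call. Sv2b had −2.67, −1.78 and −0.64 in SCI-MP and −0.25, 0.49 and 0.78 in S-MP rats, which with the vehicle values above gave a difference of −0.31 between the injury differences (adjusted p = 0.0768). Snap25 had −2.48, −0.70 and 0.10 in SCI-MP and 0.04, 0.27 and 0.54 in S-MP rats, and its injury differences differed by 0.30 (adjusted p = 0.152). After quantile normalization 2 genes were lower and 7 higher in this test, and without the first SCI-MP duplicate of 24 h 2 and 5.

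How alike the genes ran was read from the correlation of each gene with the mean of the other 33, as a description over the 30 injured rats, which share their arrays and the time course. It was 0.986 for Syp, 0.984 for Syn1 and 0.981 for Syn2, and lowest for Syt4 (−0.488), Erc2 (0.372) and Stx1a (0.587). Over the 30 sham rats it was 0.888 for Sh3gl2, 0.739 for Syp and 0.01 for Stx1a.

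The other genes of the pathway were taken from lists. Of 36 measured genes of exocytosis outside the module, 31 were lower and 1 higher in SCI-EtOH rats than in S-EtOH rats over 7 times, with a median of −0.43, where 27.5% of all genes were lower and 35.1% higher with a median of 0.036. Cadps (−1.91), which primes dense-core vesicles, fell most. Next was Snap91 (−1.5), counted in this list although it encodes a clathrin assembly protein of terminals and not one of release. The rise was that of Unc13b (0.29), the Munc13 paralogue of Unc13a. Of 22 other genes of endocytosis 13 were lower and 0 higher, set against the same shares, with a median of −0.32, led by Pacsin1 (−1.38), a membrane-bending partner of dynamin, and Dnajc6 (−1.18), the neuronal auxilin that helps uncoat vesicles. Of 6 other vesicular transporters 3 were lower and 3 higher, too few to read against those shares. The transporters of acetylcholine, Slc18a3, and of GABA and glycine, Slc32a1, fell by 1.55 and 1.52, beside the 1.49 of the glutamate transporter Slc17a6, while Slc17a9 (0.16) and Slc18a2 (0.14) had the largest rises.

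Of 17 measured paralogues outside the module, 5 were lower and 8 higher, with a median of 0.056, near the 27.5% and 35.1% of all genes and their median of 0.036. The list was meant for genes that many cell types express, which was not checked and need not hold for each of them. Vamp8, a synaptobrevin relative of secretory and immune cells, rose by 0.68 (SE 0.07, adjusted p = 6.23e-11) and Stxbp2, the Munc18 of such cells, by 0.52, whereas Syt11 fell by 0.84 and Sypl1, a relative of synaptophysin, by 0.25. Beside the fall of Vamp1, the synaptobrevin relatives Vamp3 and Vamp5 rose by 0.32 and 0.40. Vamp7 fell by 0.22, as did Vamp4 of the exocytosis list by 0.42. Beside Snap25, the more widely found Snap23 fell by 0.16. Stx3 and Stx4, syntaxins of many cell types, rose by 0.30 and 0.36, with Stx1a at −0.044. The difference between a member and its paralogue was not tested.

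Promoter windows of 300 bases, from 250 before to 50 after the annotated start, were found for 30 of the 34 measured genes in RefSeq sequence of the rat genome build GRCr8. There were none for Rims2, Snap25, Syngr1 and Syngr3. They were searched on both strands for the cAMP response element TGACGTCA and for a loose AP-1 pattern, TGANTCA, motifs that cannot match the same bases. The N takes any base, so the pattern is wider than the AP-1 site, which has C or G there. The first was in 3 of the 30 windows, those of Sh3gl2, Syn1 and Vamp1, against 1.83% of all 33469 promoter windows and 2.43% of those of the genes on the array. The second was in 2, those of Erc2 and Syp, against 7.33% and 6.27%. A match is a description of letters and not a bound site. The match of Syp lies after the annotated start and reads TGAATCA, so it is not the AP-1 site in the narrow sense. The stretches below show where the motif stands in the 4 genes whose match lies before the start, with 30 bases on either side and the motif in capitals.
Vamp1, chr4:159698793-159698860, plus strand, motif from 71 bases before the start: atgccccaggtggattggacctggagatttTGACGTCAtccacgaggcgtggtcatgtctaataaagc
Syn1, chrX:3725525-3725592, plus strand, motif from 190 bases before the start: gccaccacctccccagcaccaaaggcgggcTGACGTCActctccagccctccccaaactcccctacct
Sh3gl2, chr5:104699174-104699241, plus strand, motif from 66 bases before the start: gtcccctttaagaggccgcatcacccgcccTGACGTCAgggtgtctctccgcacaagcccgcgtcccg
Erc2, chr16:2819377-2819443, plus strand, motif from 105 bases before the start: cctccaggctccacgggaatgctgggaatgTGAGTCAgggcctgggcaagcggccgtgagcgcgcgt
The genes with the cAMP response element differed by −1.64, −1.30 and −1.03 in the order printed, within the range of the other members. Those with the loose AP-1 pattern differed by −0.34 (Erc2) and −1.70 (Syp).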

How the data were processed

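Spinal cord RNA was measured with 1 array (Rat Gene 1.0 ST) for each of 60 rats. The authors deposited log2 values that came from RMA and a normalization of chips and then of genes in GeneSpring GX 11. The sources used here do not give the value that each probe set was centred on. Signal over background cannot be read from such values, so no filter on dim probe sets was possible. Groups and times came from the sample labels. Of 27342 probe sets, 15097 had 1 gene symbol, 323 several and 11922 none. Symbols were updated through the gene ID (15067 matched), and probe sets of a gene were averaged, which gave 14324 genes.

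In R 4.3.3, limma 3.58.1 was fitted to all arrays with the 30 groups and times as means (30 residual degrees of freedom), with contrasts for single phases (2~6 h, 8 h, 12 h and 24~48 h, as in the study) and for the mean of 7 times, and Benjamini-Hochberg adjustment over all genes of a contrast at 0.05. The methods use an analysis of variance per time point with Tukey's range test, tried here as an alternative, as were quantile normalization, array medians at 0, array weights, the duplicate number as a block, the most variable probe set and leaving out each array. A noise filter on duplicates, read from the methods, kept 27338 of 27342 probe sets of the deposited values and all 35 of the members, so it tested almost nothing. The script was tested on simulated data. Each gene was named once with its difference. Values of rats were given for the 6 largest falls, genes without a call, and the 3 largest MP, interaction and late minus early differences. The members, lists and tests were chosen with earlier results of these data known. The number of arrays limits the precision.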

Additional observations from a re-analysis of the deposited data

Results flagged for a closer look

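The injury difference differed between rats given MP and rats given the vehicle in 3 genes, by the test of the difference itself. With MP it was lower in Pclo (−0.43) and Syngr1 (−0.27) and less negative in Slc17a7 (0.24), over the mean of 7 times on the log2 scale. Of all genes, 20.2% were lower and 5.45% higher in this test. The call of Syngr1 was lost without the 6 h arrays, and that of Slc17a7 in 29 of 64 alternative settings.

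The injury difference of the vehicle rats was compared between 24~48 h and 2~6 h by the test of that difference. It was lower late in 28 genes (14.8% of all genes) and higher late in 1 (16.7% of all genes). After quantile normalization far fewer genes were lower late, as given above. The test was not run without the 6 h arrays, which hold the pair with the lowest duplicate correlation. The values were −2.24 for Syt2, −2.21 for Cplx1 and −1.71 for Snap25, and 1.09 for Syt4, the gene that was higher.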

How the results depend on the processing

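The counts of genes lower with injury over the mean of 7 times, 33 in vehicle and 32 in MP rats, stayed within 1.5 times under all alternatives run, as did those at 2~6 h, 12 h and 24~48 h. At 8 h the methods' analysis of variance with Tukey's range test gave 9 in vehicle and 8 in MP rats, and 1 gene for MP in sham rats at 12 h. For MP in injured rats over 7 times the 8 calls became 5 with array weights. They became 1 with the 0 h SCI-EtOH minus S-EtOH difference taken off the SCI-EtOH rats alone. No SCI-MP rat was taken at 0 h, so that setting is not a baseline correction of the MP comparison. Those of 2~6 h became 3 with array weights and 2 without the 6 h arrays. Those of 8 h became 1 after quantile normalization and 11 in a fit of that time alone. Those of 12 h became 7 with array medians at 0, 7 with array weights and 0 after quantile normalization. That of 24~48 h became 0 after quantile normalization. In sham rats quantile normalization gave 16 over 7 times, 10 at 2~6 h, 5 at 8 h, 2 at 12 h and 9 at 24~48 h. Array weights gave 11, 4, 3, 1 and 3, and the fit of 24~48 h alone gave 0. The interaction count of 3 became 9 after quantile normalization and 5 without the 6 h arrays. At 0 h the count of 0 became 6 after quantile normalization, 5 with array weights and 10 in a fit of that time alone. Quantile normalization gave 11 genes for the late minus early change of the injury difference, against 29, and 1 for that of S-EtOH. The cause of these shifts was not tested, and shares of all genes were not counted under the alternatives.

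Without 1 rat at a time, counts ran from 2 to 15 for injury in MP rats at 8 h, 6 to 14, 3 to 14, 0 to 5, 4 to 9 and 1 to 7 for MP in injured rats over 7 times, at 2~6 h, 8 h, 12 h and 24~48 h, 2 to 4 for MP in sham rats over 7 times and 2 to 7 for the interaction.

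The replicate block (duplicate number within each time) gave 33 genes for injury in vehicle rats and 9 for MP in injured rats over 7 times, and moved no count by over 1.5 times. The difference of the duplicates correlated between −0.488 and 0.42 over 43 pairs of groups of the same time. Its sign was not the same throughout, and this range cannot exclude that same-numbered rats were handled together at single times.

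Of 2564 checks of single genes 2404 kept side and direction, 125 lost and 15 gained a call, and 20 changed sign. With the 0 h difference taken off, Stx1a stood at −0.22 for injury in vehicle rats with no call, and Syt4 and Vamp2 at 0.0195 and 0.18. With it taken off the SCI-EtOH rats alone, Snap25 and Syt4 stood at −0.0376 and −0.00907 for MP in injured rats, with no call. As SCI-MP has no rat at 0 h, these values do not correct the MP comparison for a baseline. Stx1a stood at 0.0743 for injury in MP rats after quantile normalization, 0.000153 with its more variable probe set and −0.0283 to 0.0246 without 1 rat, and in vehicle rats at −0.104 to 0.0153 without 1 rat.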
